A study of Mus musculus with 2 samples.

Results

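The genes followed here were the nuclear receptors Hnf4a, Hnf4g, Ppara, Esrra, Esrrb and Esrrg, and Ppargc1a, a coactivator that several of these receptors share. They were taken by gene symbol, as 7 of the 32285 genes counted in nuclei of developing mouse kidney. Their values were not used to pick them, but earlier results of these data were known. The question was in which nuclei each gene was found and how its level differed between kidneys of late gestation and of newborn pups. Single-nucleus RNA was counted in 1 library at E18.5, from Mycf/f;Mycnf/f (no Cre) embryos of mixed strain background, and in 1 library at P3, from Wild type pups labelled C57BL/6J, although the methods of the study give a mixed background for its mice. The floxed Myc and Mycn alleles were carried without any recombinase. Whole kidneys of males and females were pooled before nuclei were isolated, so neither library has a replicate. Age, genotype, strain background, library and the release of the counting software changed together and cannot be told apart. No p-value is therefore given for any comparison, and each interval below is an exact 95% interval that covers counting error only.

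HNF4 receptors bind DNA as dimers and are known as regulators of metabolic and transport genes in liver, gut and the proximal tubule, the segment that takes back most of the filtered solutes. PPARA is a fatty acid-sensing receptor that pairs with RXR and drives genes of fatty acid oxidation and ketone body production. The estrogen-related receptors ESRRA, ESRRB and ESRRG bind DNA largely as monomers, have no known natural hormone, and act with PPARGC1A on genes of mitochondrial energy supply. Proximal, loop and distal tubule cells are rich in mitochondria that power salt transport, and proximal cells burn fatty acids for it.

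After quality limits, 21270 nuclei with 77321253 unique molecular identifiers (UMIs) remained at E18.5 and 11765 nuclei with 70055219 UMIs at P3, with medians of 3132.5 and 4534 UMIs per nucleus. Nuclei were clustered in each library without the 7 genes and without the pathway genes listed below, and clusters were named from marker genes outside those lists. The proximal tubule-like class held 2511 nuclei (11.8%) at E18.5 and 2092 nuclei (17.8%) at P3. No class name was given to 44.1% of nuclei at E18.5 and 26.4% at P3. The 2 libraries shared 67 barcodes. Doublets, barcodes that hold more than 1 nucleus, were called in 17.5% and 17.4% of nuclei and were kept. Among the proximal tubule-like clusters at P3, cluster 1 consisted mostly of them: 93.8% of its 794 nuclei were called, with a median of 12078 UMIs. Without cluster 1 the proximal levels at P3 were 316 CPM for Hnf4a (counts of UMIs scaled to 1000000 per class; 304 to 327), 251 for Hnf4g (241 to 261), 224 for Ppara (214 to 234), 338 for Ppargc1a (326 to 350), 113 for Esrra (106 to 120), 5.20 for Esrrb (3.82 to 6.91) and 3801 for Esrrg (3761 to 3841), from 1298 nuclei. At E18.5 the class was mixed in another way. When its nuclei were clustered again, 4 of the 11 subclusters, with 932 nuclei (37.1% of the class), held under 500 CPM of the 10 proximal markers together, whereas the others held over 1000 CPM. In these 932 nuclei Hnf4a stood at 10.9 CPM (7.65 to 15.1), Hnf4g at 17.3 CPM (13.1 to 22.4) and Esrrg at 531 CPM. Their name is therefore doubtful, and some counts that include them are given below without them as well, a choice made after the subclusters had been seen. The detection shares, the joint detection of genes and most counts of the pathway lists are given with them only. Without them the levels at E18.5 were 208 CPM for Hnf4a, 235 for Hnf4g, 90.2 for Ppara, 297 for Ppargc1a, 48.9 for Esrra, 2.496 for Esrrb and 3240.4 for Esrrg. No subcluster at P3 was under this limit.

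Hnf4a (chr2:163506808-163572910, plus strand, GRCm38) was high in proximal tubule-like nuclei alone among the named classes. Its level there was 138 CPM (131 to 146) in the E18.5 library and 228 CPM (221 to 234) in the P3 library. In the next class in order it was 18.0 CPM at E18.5, in mural nuclei, and 19.8 CPM at P3, in early nephron-like nuclei. The step from the proximal class to the next was 7.67-fold (4.37 to 14.9) in the first library and 11.5-fold (9.65 to 13.8) in the second, whereas in 10 of the 11 neighbouring pairs of classes at E18.5 and 9 of 10 at P3 the interval of the ratio held 1. A UMI of Hnf4a was found in 30.3% of proximal nuclei and 3.39% of endothelial nuclei at E18.5 (median depths 3410.0 and 3142 UMIs), and in 77.8% and 4.42% at P3 (7715 and 3851 UMIs). With every nucleus thinned to 1000 UMIs the proximal shares were 11.8% and 22.5%, against 0.976% and 1.11% in endothelium, which is not known to use the gene and serves here as the background. The antisense gene Hnf4aos overlaps Hnf4a and went with it, at 172 CPM in proximal nuclei at E18.5 and 703 CPM at P3.

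Hnf4g (chr3:3508030-3658052, plus strand), the paralogue of Hnf4a with a like DNA-binding domain, had the same leading class. It stood at 158 CPM (150 to 166) in proximal nuclei at E18.5 and 181 CPM (175 to 187) at P3. Early nephron-like nuclei came next, at 19.1 and 53.3 CPM. At P3 most of this, 308 of 347 UMIs, came from the Grid1-led cluster 12 described below, and the other early nephron-like clusters held 6.52 CPM (4.33 to 9.43) and 9.71 CPM (4.85 to 17.4). Of Hnf4a, too, 82 of the 129 UMIs in this class came from cluster 12. At P3 the loop of Henle-like class followed at 35.5 CPM (27.7 to 44.7), where it had been 9.39 CPM (4.05 to 18.49) at E18.5. Endothelial nuclei, the background, held 5.32 CPM at E18.5 and 8.76 CPM (6.29 to 11.9) at P3.

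Ppara (chr15:85734983-85802819, plus strand) was highest in distal tubule-like nuclei at E18.5. There it stood at 123 CPM (93.5 to 160) in distal, 71.6 CPM (54.7 to 91.9) in loop and 63.6 CPM (58.6 to 68.9) in proximal nuclei. Distal nuclei were 1.72-fold (1.18 to 2.52) above loop nuclei, and the ratio of loop to proximal nuclei, 1.13, had an interval (0.850 to 1.47) that held 1. Without the low-marker subclusters proximal nuclei stood at 90.2 CPM (82.8 to 98.1). At P3 the proximal class led, at 164 CPM (158 to 169), 2.20-fold (1.87 to 2.61) above loop nuclei at 74.4 CPM, and distal nuclei stood at 41.5 CPM.

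Ppargc1a (chr5:51454250-51567726, minus strand) was highest in nuclei of the loop, the distal tubule and the intercalated cells, the acid-base cells of the collecting system. At E18.5 its level was 1773 CPM (1654 to 1899) in distal, 1100.4 CPM (1031 to 1173) in loop, 833 CPM (730 to 946) in intercalated and 214 CPM (205 to 224) in proximal nuclei. At P3 these classes stood at 843, 667, 813 and 272 CPM, so that proximal nuclei were below all 3 of the others at both ages. Early nephron-like nuclei also lay above proximal nuclei at E18.5, at 304 CPM (287 to 322). The proximal level without the low-marker subclusters, given above, was close to this. At P3 early nephron-like nuclei stood at 41.9 CPM (37.1 to 47.2), 0.138 of their E18.5 level (0.120 to 0.157). Of the 273 UMIs of Ppargc1a in this class at P3, 102 came from cluster 12, described below. The Grid1-led cluster at E18.5 lay in the proximal class instead, so this ratio compares unlike mixtures of nuclei.

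Esrra (chr19:6910977-6921813, minus strand), the most widely used receptor of its family in adult tissues, varied least between classes. It ranged from 18.2 CPM in interstitial nuclei to 74.4 CPM (46.1 to 114) in intercalated nuclei at E18.5, and from 19.5 CPM in mural to 91.4 CPM (64.4 to 126) in intercalated nuclei at P3. Proximal nuclei took a higher place in the order at P3, from 37.8 CPM (33.97 to 42.0) at E18.5, below loop nuclei at 65.7 CPM, to 85.4 CPM (81.5 to 89.4) at P3. At P3 the intervals of the ratios between neighbours from intercalated to loop nuclei held 1. Classes further apart still differed, since loop nuclei stood at 60.9 CPM (50.6 to 72.8), an interval wholly below that of proximal nuclei.

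Esrrb (chr12:86361117-86521628, plus strand), best known from pluripotent stem cells, was the gene most restricted to loop and distal nuclei. It stood at 257 CPM (224 to 293) in loop and 255 CPM (211 to 306) in distal nuclei at E18.5, and at 171 CPM (153 to 190) and 156 CPM (135 to 180) at P3. Intercalated nuclei held 39.0 and 61.8 CPM. Proximal nuclei held 2.26 CPM (1.40 to 3.45) at E18.5, from 21 UMIs. At P3 they held 13.9 CPM (12.4 to 15.6), but 5.20 CPM (3.82 to 6.91) without cluster 1. Endothelium at P3 also held 14.7 CPM, which was 3.67 CPM without its doublet-rich clusters, 1 of which had the distal marker Slc12a3 among its leading genes.

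Esrrg (chr1:187608791-188214885, plus strand) was found at E18.5 in 82.8% of proximal, 100% of loop and 99.3% of distal nuclei, against 37.3% of endothelial nuclei, and at P3 in 99.8%, 99.8% and 99.6% against 71.0%. Thinned to 1000 UMIs, the shares were 68.4%, 95.7%, 97.9% and 14.2% in the first library and 91.8%, 95.1%, 96.2% and 35.7% in the second. In distal, loop and intercalated nuclei it stood at 9856, 7085 and 4735 CPM at E18.5 and at 8065, 7798 and 5213 CPM at P3. Early nephron-like nuclei held 3418 CPM (3359 to 3477) at E18.5 and 952 CPM (928 to 976) at P3, a ratio of 0.279 (0.270 to 0.287). Of the 6200 UMIs of Esrrg in this class at P3, 4337 came from the Grid1-led cluster 12. The Grid1-led cluster at E18.5 lay in the proximal class instead, so this ratio compares unlike mixtures of nuclei. Proximal nuclei, with the low-marker subclusters kept, held 2281 CPM (2250 to 2311) and 3148 CPM (3124 to 3171), and endothelial nuclei 190 and 708 CPM. Doublets were called in 21.1% and 20.8% of the endothelial nuclei, and their level of Esrrg without these is not given here. At P3 the interval of only 1 of 10 neighbouring pairs of classes held 1. Levels are compared here within a gene and not between genes, since a long gene gives more UMIs in nuclei.

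**Figure D1:**
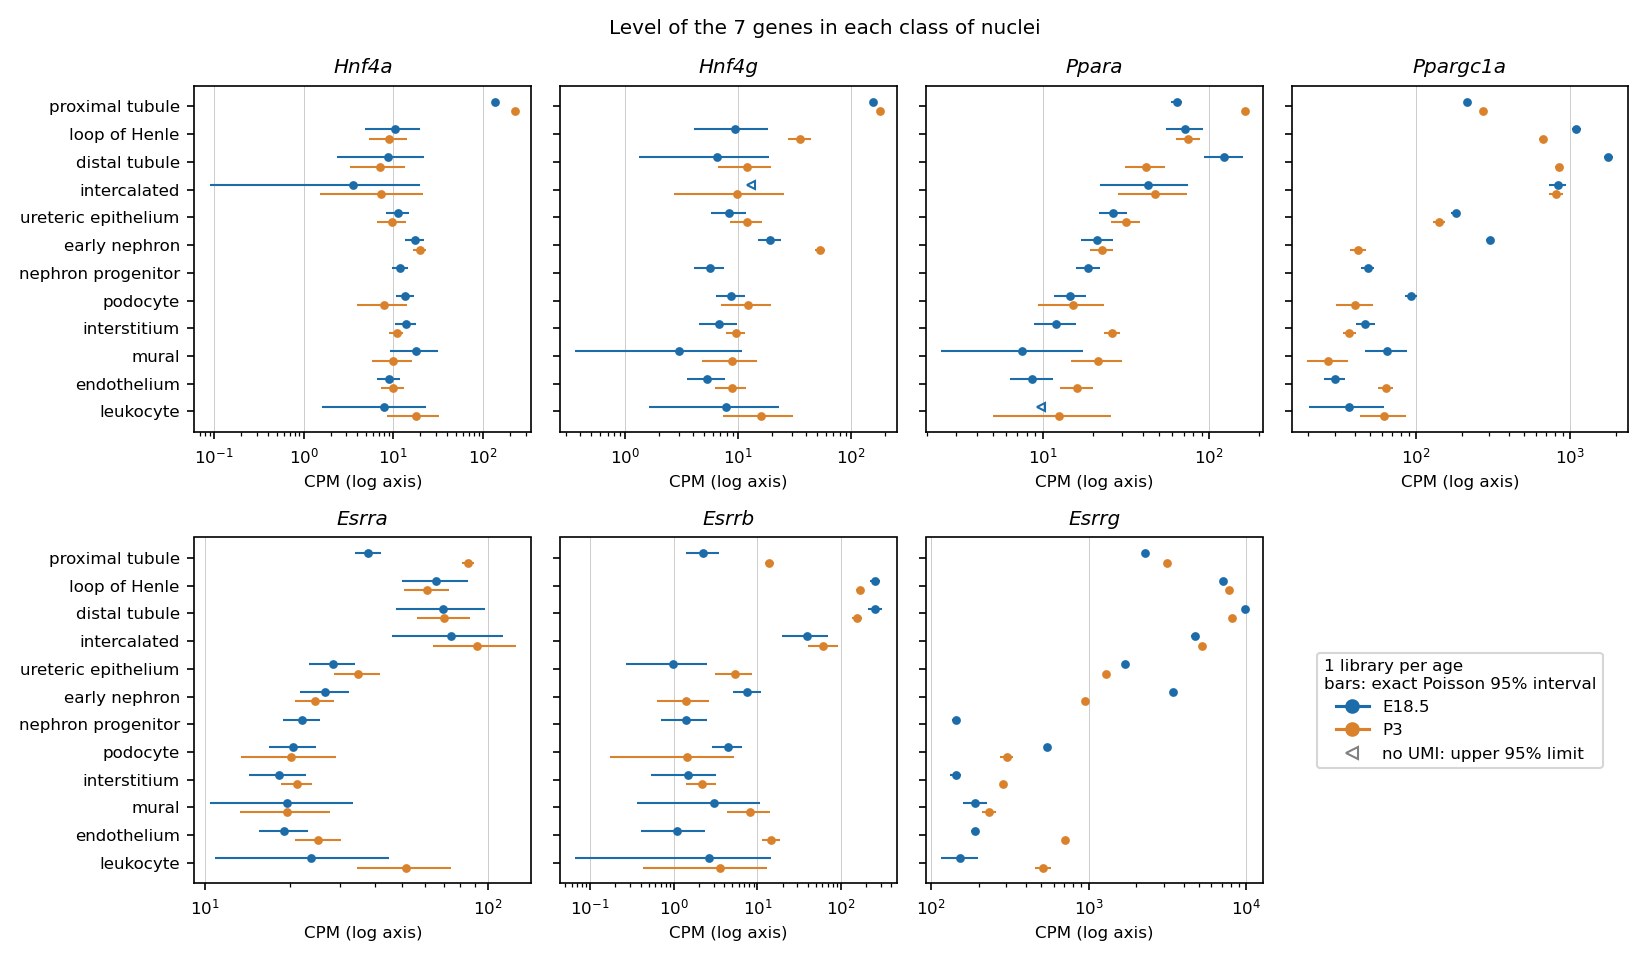
Level of each of the 7 genes (CPM, log axis) in 12 classes of nuclei at E18.5 (blue) and P3 (orange), 1 library per age, with exact Poisson 95% intervals; open triangles give the upper limit where no UMI was found, and nephron progenitors were named at E18.5 alone. Hnf4a and Hnf4g stand apart in proximal nuclei, Esrrb is highest in loop and distal nuclei, and Ppargc1a and Esrrg are higher in loop, distal and intercalated nuclei than in proximal nuclei.

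Proximal tubule-like nuclei were next set against all other nuclei of the same library, and a gene was counted when its CPM, with 1 added, was at least 2-fold higher. At this limit 4 of the 7 genes passed at E18.5, where 4.82% of all 19894 genes tested did: Hnf4g at 7.49-fold (6.96 to 8.06), Hnf4a at 5.54-fold (5.15 to 5.96), Ppara at 2.79-fold (2.54 to 3.07) and Esrrg at 2.05-fold (2.02 to 2.09). Esrrb was lower in proximal nuclei, at 0.207 of the level elsewhere (0.128 to 0.319), as were 7.18% of genes. At P3 again 4 of 7 passed, against 7.69% of 19537 genes. No member was lower by 2-fold, as 9.35% of genes were. The higher genes were Hnf4a at 14.3-fold (13.2 to 15.4), Hnf4g at 7.98-fold (7.47 to 8.54), Ppara at 5.58-fold (5.24 to 5.94) and Esrra at 2.83-fold (2.64 to 3.03). Esrrg lay just under the limit, at 1.998-fold (1.98 to 2.02), and Ppargc1a at 1.91-fold (1.85 to 1.98). Without clusters in which most nuclei were called doublets, 6 of 7 passed at P3, against 10.8% of genes, and Esrrb, at 0.254, was the 1 gene that was lower, as were 22.5%. At E18.5 the same 4 genes were higher, against 5.96%, and Esrrb alone was lower, against 8.04%. Without the low-marker subclusters 6 of 7 were higher at E18.5, against 6.55%, with Hnf4g at 11.1-fold, Hnf4a at 8.34-fold, Ppargc1a at 2.07-fold and Esrra at 2.05-fold, and Esrrb was lower, against 12.1%. Hnf4a, Hnf4g and Ppara passed at both ages under every way of choosing the nuclei or scaling that was tried. The ratio of Hnf4a lay between 5.54 and 14.2 at E18.5 and between 13.3 and 22.6 at P3, that of Hnf4g between 7.49 and 26.7 and between 7.98 and 11.4, and that of Ppara between 2.79 and 5.26 and between 5.58 and 8.64.

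The name of proximal tubule genes did not hold for the whole group. Loop and distal nuclei together were set against proximal nuclei, and 3 of the 7 genes were at least 2-fold higher in loop and distal nuclei at E18.5, where 6.89% of 15174 genes were. Esrrb was 114-fold higher (73.1 to 186), Ppargc1a 6.23-fold (5.84 to 6.65) and Esrrg 3.53-fold (3.45 to 3.62). At P3 the same 3 genes passed, against 6.37% of 16807 genes, with Esrrb at 11.9-fold (10.3 to 13.7), Ppargc1a at 2.70-fold (2.58 to 2.84) and Esrrg at 2.51-fold (2.47 to 2.55). Without the doublet-rich clusters the P3 ratio of Esrrb was 31.8. The calls of Ppargc1a and Esrrg at P3 were lost with another clustering method, at 1.68-fold and 1.84-fold, and that of Esrrg at E18.5 without called doublets, at 1.82-fold. Without the low-marker subclusters the same 3 genes passed at E18.5, against 7.68% of genes, with Ppargc1a at 4.51-fold and Esrrg at 2.49-fold.

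Hnf4a and Hnf4g were lower in loop and distal nuclei at both ages, 2 of 7 genes at E18.5 (14.9% of all genes) and, with Ppara, 3 of 7 at P3 (12.3%). Hnf4a stood at 0.0716 of its proximal level (0.0380 to 0.123) in the E18.5 library and 0.0364 (0.0240 to 0.0530) at P3. Hnf4g stood at 0.0530 (0.0264 to 0.0950) and 0.146 (0.116 to 0.181). Ppara changed sides, from 1.41 (1.15 to 1.72) at E18.5 to 0.377 (0.325 to 0.435) at P3, but its E18.5 ratio was below 1 under 4 other choices of nuclei, between 0.627 and 0.995.

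**Figure D2:**
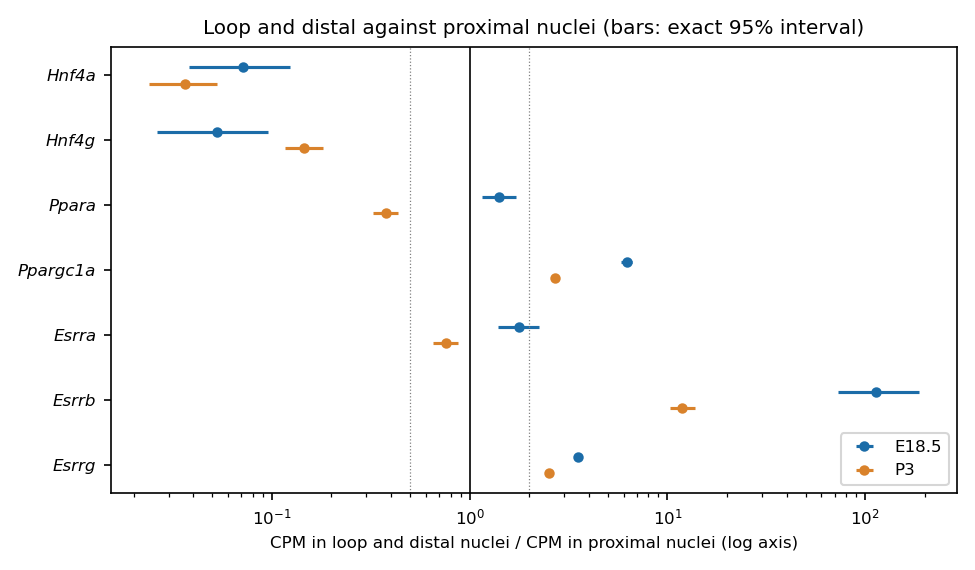
Ratio of CPM in loop and distal nuclei to CPM in proximal nuclei (log axis) for the 7 genes at E18.5 (blue) and P3 (orange), with exact 95% intervals; the solid line marks 1 and the dotted lines the 2-fold limits. Esrrb, Ppargc1a and Esrrg lie to the right at both ages, and Hnf4a and Hnf4g to the left.

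Within the proximal nuclei the genes did not move as one. At E18.5 the class consisted of cluster 3, with 1976 nuclei led by Grid1, Cdh6 and Stxbp5l, and cluster 8, with 535 nuclei led by Slc22a27, Slc7a12 and Aadat. Cluster 8 had 7 of the 10 proximal markers raised and cluster 3 had 5. The 932 nuclei of few proximal markers all lay in cluster 3, so its remaining 1044 nuclei were taken for the comparison. The ratio of cluster 8 to these was 2.06 for Hnf4a (1.84 to 2.31; 306 against 148 CPM), 2.08 for Ppara (1.75 to 2.47; 133 against 64.02 CPM), 1.91 for Ppargc1a (1.74 to 2.10; 421 against 220 CPM) and 1.51 for Esrra (1.19 to 1.91; 62.0 against 41.0 CPM). It was 0.999 for Hnf4g, with an interval (0.895 to 1.11) that held 1 (235 CPM in both), and 0.881 for Esrrg (0.855 to 0.907; 2989 against 3394 CPM). With the 932 nuclei included these ratios were 3.65 for Hnf4a, 3.24 for Ppara, 2.86 for Ppargc1a, 2.06 for Esrra, 1.77 for Hnf4g and 1.457 for Esrrg, so the direction of Esrrg turned with them. Esrrb, with 9 and 12 UMIs in clusters 8 and 3, had a ratio of 2.32 whose interval (0.862 to 5.99) held 1. The 1044 nuclei were still mixed. When the class was clustered again, subcluster 3, with 571 nuclei and 7770 CPM of the 10 proximal markers, was larger than cluster 8. Some of its nuclei therefore lay in cluster 3.

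The subclusters of the E18.5 class with more proximal markers were not alike. Subcluster 5 (234 nuclei, with Rtl4, Esr1 and Grid1 among its leading genes) held Hnf4g at 349 CPM, Hnf4a at 161 CPM and Esrrg at 3923 CPM. Subcluster 9 (208 nuclei, with Slc5a12 and Slc5a2 among its leading genes) held 186, 209 and 4197 CPM of these genes, so that Hnf4g was higher in the first and Hnf4a in the second.

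A cluster led by Grid1, Stxbp5l and Cdh6 was also found at P3, cluster 12 with 207 nuclei, but it carried the name early nephron-like and so lay outside the proximal class. Hnf4g stood there at 283 CPM (253 to 317) and Esrrg at 3992 CPM, close to or above clusters 14 and 22 together, at 216 CPM and 3934 CPM. Hnf4a stood at 75.5 CPM, Ppara at 33.1, Ppargc1a at 93.9 and Esrra at 33.1 CPM in cluster 12. Clusters 14 and 22, which had all 10 proximal markers raised, were 4.15-fold (3.33 to 5.23), 7.97-fold (5.73 to 11.4), 4.21-fold (3.45 to 5.18) and 3.85-fold (2.76 to 5.54) above it for these 4 genes. For Hnf4g they were at 0.761 of it (0.672 to 0.863). Esrrb had 0 UMIs in cluster 12 and 29 in clusters 14 and 22.

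The balance of the paralogues followed the same order. Hnf4g spans 150 kb and Hnf4a 66.1 kb, and the part of length in this ratio was not tested. There were 1.59 UMIs of Hnf4g per UMI of Hnf4a (1.43 to 1.77) in cluster 3 at E18.5, with or without its low-marker nuclei, and 0.769 (0.685 to 0.862) in cluster 8. At P3 the ratio was 3.76 (2.94 to 4.85) in cluster 12, 1.12 (1.009 to 1.24) in cluster 9, 0.733 (0.678 to 0.791) in cluster 14 and 0.576 (0.503 to 0.659) in cluster 22. The Grid1-led clusters thus held the highest share of Hnf4g at both ages, and these clusters were compared after their values had been seen.

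At P3 the remaining proximal clusters differed among themselves. Cluster 22 (396 nuclei) had Slc5a2 and Slc5a12 among its leading genes, genes of glucose and lactate uptake in the first part of the tubule. Cluster 14 (607 nuclei) was led by Slc13a3 and G6pc, and cluster 9 (295 nuclei) by Aadat, Slc7a12 and Slc7a13, the last a transporter of the straight end of the tubule. Ppargc1a was highest in cluster 22, at 494 CPM (467 to 522), against 337 CPM in cluster 14 and 154 CPM in cluster 9. Esrra had the same order, at 139, 121 and 67.2 CPM. Ppara was highest in cluster 14, at 288 CPM (272 to 304), against 223 CPM in cluster 22 and 97.3 CPM in cluster 9. Hnf4g ran the other way, at 363 CPM (338 to 389) in cluster 9, 263 CPM in cluster 14 and 135 CPM in cluster 22. Hnf4a stood at 325, 359 and 234 CPM in clusters 9, 14 and 22. The ratio of cluster 9 to cluster 22 was 2.69 for Hnf4g (2.37 to 3.07), 0.312 for Ppargc1a (0.276 to 0.353), 0.436 for Ppara (0.370 to 0.511) and 0.482 for Esrra (0.394 to 0.586). Esrrg stayed within 3377 and 4075 CPM over the 3 clusters. The clusters differed in more than segment. The proximal markers summed to 4806 CPM in cluster 9, 12776 in cluster 14 and 15965 in cluster 22. A list of early proximal genes summed to 1705, 1032 and 836 CPM in clusters 9, 14 and 22. Genes of cycling cells summed to 453, 89.2 and 92.0 CPM there. The part of segment and that of maturity in these differences were not tested.

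**Figure D3:**
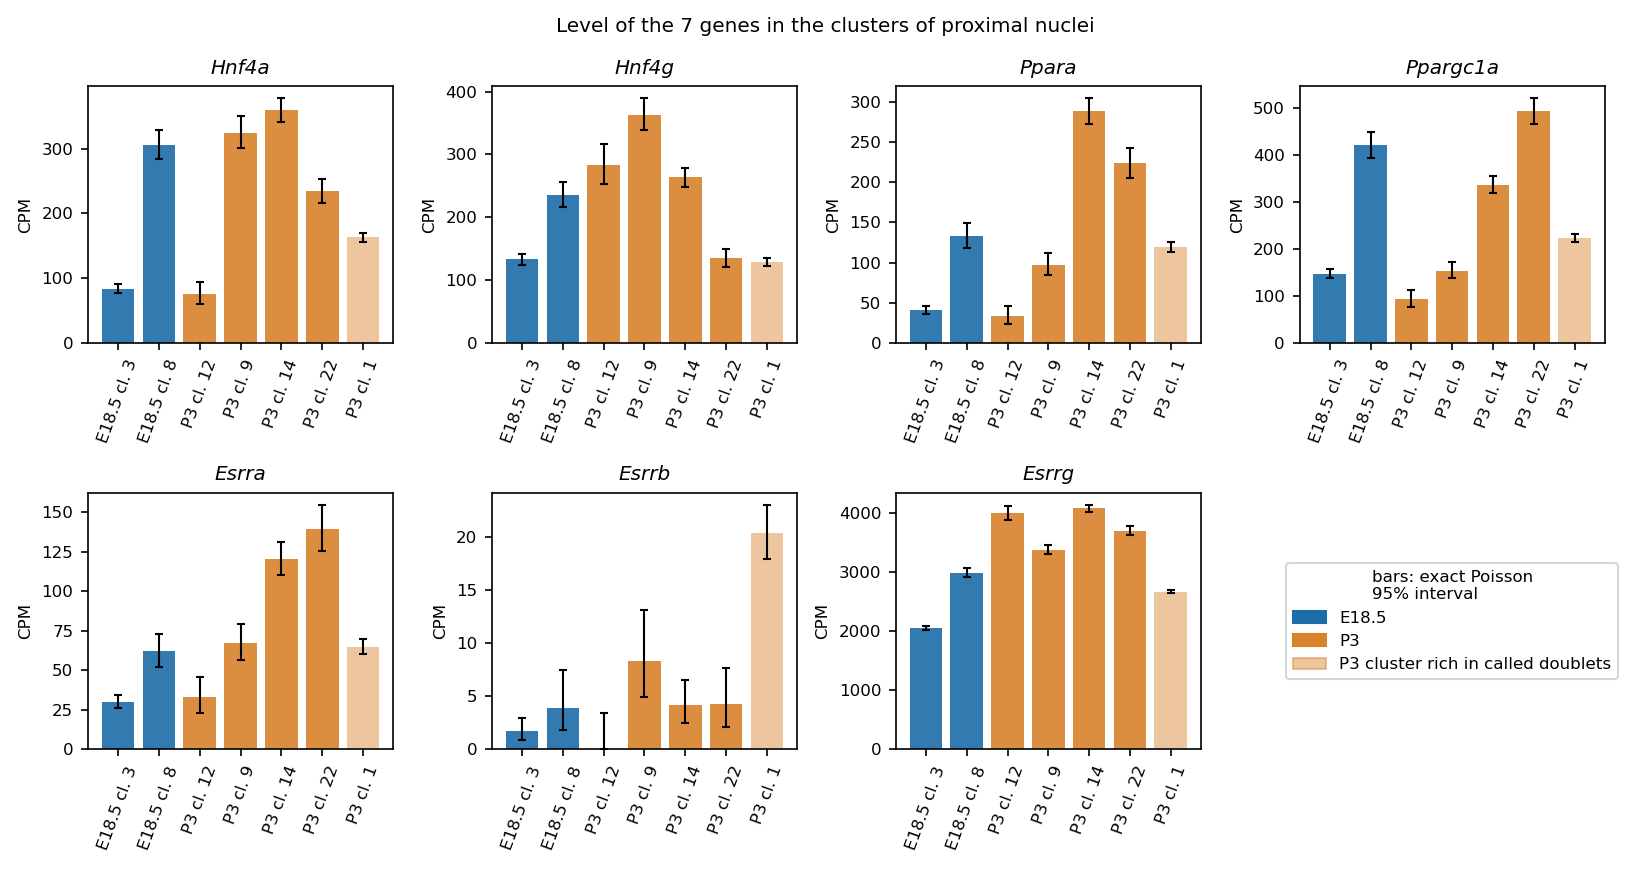
Level (CPM) of the 7 genes in the clusters of proximal nuclei at E18.5 (blue) and P3 (orange), with exact Poisson 95% intervals; P3 cluster 12 is the Grid1-led cluster named early nephron-like and the pale bar is the doublet-rich cluster 1. Hnf4g is highest in P3 cluster 9 and Ppargc1a in P3 cluster 22, and Esrrb exceeds 10 CPM in cluster 1 alone.

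Loop and distal nuclei also fell into clusters at P3. The Slc12a1-led loop cluster 19 (235 nuclei) held Esrrb at 247 CPM, Esrrg at 10393 CPM and Ppargc1a at 842 CPM. Loop cluster 5 (98 nuclei, led by Sgcz and Ranbp3l) held 80.9, 4776 and 228 CPM of these genes, so the ratios were 3.05 (2.18 to 4.38), 2.18 (2.08 to 2.28) and 3.69 (3.03 to 4.54). Loop cluster 29 (72 nuclei), with the calcium-sensing receptor gene Casr among its leading genes, held Esrrb at 61.7 CPM and Esrrg at 3994 CPM but Ppargc1a at 702 CPM. Cluster 19 was above it 3.996-fold (2.63 to 6.34), 2.60-fold (2.47 to 2.75) and 1.20-fold (1.05 to 1.38). Of the distal nuclei, the Slc12a3-led cluster 20 (130 nuclei) held 251 CPM of Esrrb. Cluster 25 (107 nuclei), with the sodium channel subunits Scnn1b and Scnn1g among its leading genes, held 10.1 CPM, 24.7-fold less (10.4 to 77.0), and 2.42-fold less Ppargc1a (2.09 to 2.82; 453 against 1096 CPM).

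The 2 ages were then compared within proximal tubule-like nuclei. Of the 7 genes, 3 were at least 2-fold higher at P3, against 6.03% of 17414 genes, and 0 were lower, against 10.5%. Ppara stood at 2.57 times its E18.5 level (2.36 to 2.81), Esrra at 2.26 (2.01 to 2.54) and Esrrb at 6.18 (3.97 to 10.1). The other ratios were 1.65 for Hnf4a (1.55 to 1.76), 1.38 for Esrrg (1.36 to 1.40), 1.27 for Ppargc1a (1.20 to 1.33) and 1.14 for Hnf4g (1.08 to 1.22). Rises were found outside the tubule too, with called doublets kept. Ppara stood at 2.18 (1.61 to 3.02) in interstitial and 1.86 (1.27 to 2.74) in endothelial nuclei. Of its 300 interstitial UMIs at P3, 79 came from cluster 4, which had adipocyte genes among its leading genes. The ratio without cluster 4 is not given here. The intervals of Ppara held 1 in early nephron-like and podocyte nuclei. Esrra stood at 1.32 (1.008 to 1.74) in endothelial nuclei and 2.18 (1.006 to 5.24) in leukocytes. Its intervals held 1 in interstitial, mural, podocyte, early nephron-like and ureteric nuclei. Esrrb stood at 13.4 (5.86 to 37.8) in endothelial nuclei, but its P3 level there fell without doublet-rich clusters, as given above. Esrrg stood at 1.99 (1.82 to 2.18) in interstitial, 3.73 (3.48 to 4.00) in endothelial and 3.39 (2.55 to 4.57) in leukocyte nuclei. It was lower at P3 in podocyte and ureteric nuclei, at 0.552 (0.498 to 0.612) and 0.761 (0.732 to 0.792), and in early nephron-like nuclei. A shift shared by the library was not tested. In proximal nuclei without the low-marker subclusters of E18.5, Esrrb alone passed (7.33% of genes higher, 8.4% lower), at 5.59. This value rests on the doublet-rich cluster 1 at P3. Ppara then stood at 1.82, Esrra at 1.75, Hnf4a at 1.096, Esrrg at 0.971, Ppargc1a at 0.917 and Hnf4g at 0.769. Cluster 1 at P3 was kept in these ratios, and it held Hnf4g at 129, Ppargc1a at 223 and Esrrg at 2666 CPM. With cluster 1 left out as well, the levels given above were higher at P3 for all 7 genes. The median gene stood at -0.14 on the log2 scale over the whole class. The median moved with the length of the gene, from -0.38 for genes spanning under 10 kb to 0.17 for those over 100 kb. Esrra spans 10.8 kb, Hnf4a 66.1 kb, Ppara 67.8 kb and the other members over 100 kb; the part of length in these ratios was not tested.

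The makeup of the class differed between the ages in another way too, since the Grid1-led cluster 3 gave most proximal nuclei at E18.5 and its counterpart at P3 lay outside the class. When cluster 8 at E18.5 was set against clusters 14 and 22 at P3, a choice made after the clusters had been seen, only Esrra of the 7 genes was at least 2-fold higher (7.44% of 13757 genes were), at 2.06 (1.72 to 2.48). Ppara followed at 1.98 (1.75 to 2.25), from 133 to 264 CPM. The ratio was 1.02 for Hnf4a (0.939 to 1.12), 0.917 for Hnf4g (0.830 to 1.014), 0.938 for Ppargc1a (0.871 to 1.011) and 1.07 for Esrrb (0.491 to 2.56), and these 4 intervals held 1. Esrrg stayed higher, at 1.32 (1.28 to 1.35). These clusters were not matched by segment. A list of genes of the straight end summed to 734 CPM in cluster 8, 318 in cluster 14 and 53 in cluster 22. Cluster 9 at P3, left out here, held 785 CPM of them, with Ppara at 97.3 and Esrra at 67.2 CPM. Segment and age therefore cannot be told apart in these ratios, nor in later counts from these clusters. Over all choices of nuclei within the proximal class that were tried, Ppara ranged from 1.41 to 3.52 and Esrra from 1.44 to 2.99. Hnf4a, Hnf4g, Ppargc1a and Esrrg fell on either side of 1. Without called doublets Esrrb stood at 1.13. Without the doublet-rich clusters 3 of 7 were higher at P3, Ppara, Esrra and Hnf4a, against 7.21% of genes, and 0 lower, against 22.1%.

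**Figure D4:**
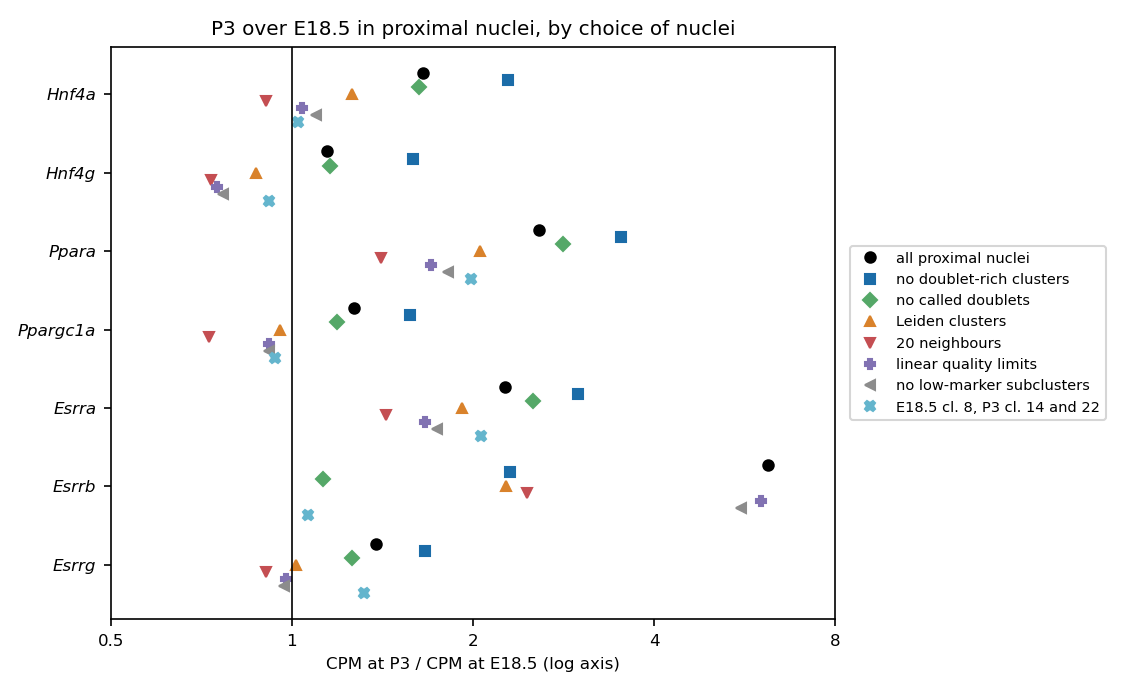
Ratio of the level at P3 to that at E18.5 in proximal nuclei (log axis) for the 7 genes, with 1 symbol for each way of choosing the nuclei; the line marks 1. The symbols of Ppara and Esrra all lie above 1, and those of Hnf4a, Hnf4g, Ppargc1a and Esrrg lie on both sides of the line.

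In loop and distal nuclei Ppargc1a was lower at P3, at 0.606 of its E18.5 level (0.557 to 0.660) in the loop class and 0.475 (0.433 to 0.521) in the distal class. This held in the clusters with the same leading marker at both ages, at 0.766 (0.699 to 0.839) in the Slc12a1-led and 0.618 (0.560 to 0.681) in the Slc12a3-led nuclei. Ppara was lower in distal nuclei, at 0.336 (0.226 to 0.498) in the class and 0.394 (0.253 to 0.606) in the Slc12a3-led cluster. Esrrb was lower in both classes, at 0.665 (0.560 to 0.791) and 0.612 (0.484 to 0.775), but stood at 0.960 (0.801 to 1.15) and 0.982 (0.777 to 1.25) in the clusters led by Slc12a1 and Slc12a3. Esrrg stood at 1.10 (1.07 to 1.13) in the loop class and 0.818 (0.790 to 0.848) in the distal class. In the clusters led by Slc12a1 and Slc12a3 it was higher at P3, at 1.47 (1.42 to 1.51) and 1.06 (1.02 to 1.10). Hnf4g was higher in loop nuclei at P3, where it had 71 UMIs against 8 in the E18.5 library, a ratio of 3.78 (1.82 to 9.09).

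Genes of fatty acid oxidation and other PPARA targets, a list of 29, were counted beside the receptors. In proximal against all other nuclei 4 of 28 tested were at least 2-fold higher and 1 lower at E18.5, and 14 of 29 were higher and 0 lower at P3, against 4.82% and 7.18% of all genes in the first library and 7.69% and 9.35% in the second. Without the low-marker subclusters 7 of 28 were higher at E18.5 and 0 lower, against 6.55% and 12.1% of all genes. Between the ages, 11 of 28 were higher at P3 in proximal nuclei (6.03% of all genes were) and 0 were lower (10.5%), with a list median of 0.44 on the log2 scale beside -0.14 for all genes. By the rule for named genes these include the fatty acid hydroxylases Cyp4a14, at 59.7 against 1.18 CPM, and Cyp4a10, at 57.9 against 2.04 CPM, which are near copies whose reads may be shared. Cyp4a31, at 151 against 110 CPM, did not reach 2-fold. Named after their values were seen, Pdk4, a brake on glucose oxidation, stood at 99.0 against 5.48 CPM, and Cpt1a, which admits fatty acids to mitochondria, at 130 against 35.1 CPM. In clusters 14 and 22 against cluster 8, 13 of 28 were higher and 0 lower, against 7.44% and 12.4% of genes, with Pdk4 at 137 against 11.4 CPM and Cpt1a at 174 against 59.3 CPM.

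Mitochondrial energy genes bound by ESRR receptors, a list of 20, did not follow that count. In proximal nuclei 0 of 20 were at least 2-fold higher at P3 (6.03% of all genes were) and 7 were lower (10.5%). The list median of -0.20 lay close to the -0.14 of all genes and to the -0.22 of genes spanning 10 to 30 kb, and the part of length in these counts was not tested. The lower genes include Ndufb5, at 20.9 against 101 CPM, and Cox4i1, at 107 against 423 CPM, both named after their values were seen. In clusters 14 and 22 against cluster 8, 0 were higher and 5 lower, against 7.44% and 12.4%. Against all other nuclei 0 of 20 were higher in proximal nuclei at E18.5 and 1 of 20 at P3, where 4.82% and 7.69% of all genes were. That gene was Sirt3, a mitochondrial deacetylase, at 3.29-fold (3.07 to 3.51). Sdhb, a subunit of succinate dehydrogenase, stood at 1.90-fold at P3. In loop and distal against proximal nuclei 2 of 20 were higher at E18.5 and 0 at P3, against 6.89% and 6.37%.

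Of a list of 14 close relatives and partner factors, 3 of 13 tested were at least 2-fold higher in proximal nuclei at both ages, against 4.82% and 7.69% of all genes. Among these, Nr1h4, the bile acid receptor, stood at 43.0 against 14.8 CPM and 83.6 against 19.9 CPM in proximal and other nuclei at E18.5 and P3. At E18.5 0 of the 13 were lower and at P3 2 were, against 7.18% and 9.35% of all genes. Ppard, at 0.850 and 0.756 of the level elsewhere, and Pparg, at 0.789 and 0.691, did not share the pattern of Ppara. Ppargc1b, the relative of Ppargc1a, stood at 1.06 and 1.42, and Rxra, the partner of PPARA, at 0.746 and 1.0098. Between the ages in proximal nuclei, 0 of 12 were higher and 1 was lower, against 6.03% and 10.5% of all genes. Rxra stood at 21.5 CPM at P3 against 10.7 CPM, and Ppargc1b at 121 against 63.0 CPM.

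Of 13 coregulators and mitochondrial biogenesis factors, 1 was at least 2-fold higher in proximal nuclei at each age, where 4.82% and 7.69% of all genes were. It was Prkaa2, a catalytic subunit of the energy sensor AMPK, at 2.59-fold (2.41 to 2.79) and 2.75-fold (2.61 to 2.90). Nrip1, a corepressor, stood at 1.12 and 1.02. Lpin1 was the 1 of 12 that was higher at P3 in proximal nuclei (6.03% of all genes were), at 23.9 against 10.4 CPM. Brush border and glucose production genes, a list of 12, had 9 higher in proximal nuclei at each age, against 4.82% and 7.69% of all genes. Among them was the scaffold gene Pdzk1, at 5.31-fold and 13.2-fold. Between the ages 4 of 12 were higher at P3 (6.03% of all genes were) and 0 lower (10.5%). Without the low-marker subclusters 4 were higher and 2 lower, against 7.33% and 8.4%. The higher genes include G6pc, which releases glucose, at 373 against 10.1 CPM, and Fbp1 at 681 against 202 CPM. In clusters 14 and 22 against cluster 8, 4 were higher and 2 lower, against 7.44% and 12.4%.

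Likeness of pattern was measured across the 26 clusters at E18.5 and the 37 at P3, as Pearson's r of log2(CPM + 10), over 11553 genes, taking the smaller value of the 2 libraries. These r values describe clusters of the same library, which share its depth and free RNA. Hnf4a was most like Lrp2 (r = 0.953), Dao (0.950), Slc34a1 (0.950), Pdzk1 (0.949) and Gm10283 (0.945), of which Lrp2 and Slc34a1 are proximal markers used to name the class. Hnf4g was most like Gm10283 (0.931), Gm45792 (0.930), Gm10732 (0.915), Gm19950 (0.914) and Hnf4a (0.911). Ppargc1a and Esrrg were each other's close match (0.940), and Ppargc1a was also like Atp1b1 (0.920), Tfcp2l1 (0.909), Cdkl1 (0.899) and Gm36388 (0.898). Esrrg was most like Gm36388 (0.976), and after Ppargc1a came Elovl7 (0.925), Pde4c (0.921) and Cdkl1 (0.913). Esrrb was like Gm13075 (0.936), Kng2 (0.917), Tmem72 (0.911), Abca13 (0.904) and Wnk4 (0.867), a kinase of distal salt transport. Esrra was like Pcyt2 (0.865), Ogdh (0.835), Cluh (0.829), Sgk2 (0.823) and Phyh (0.822). Ppara had the weakest matches, Acsl1 (0.784), Cluh (0.781), Kctd9 (0.776), Zmynd12 (0.768) and Esrra (0.766). Among the genes followed here, Hnf4a and Hnf4g had r of 0.944 at E18.5 and 0.911 at P3, whereas Hnf4a and Esrrb had -0.12 and -0.10. In proximal nuclei thinned to 1000 UMIs, Hnf4a and Hnf4g were found together in 49 of 2503 nuclei at E18.5, 1.44 times the number expected from separate detection (1.06 to 1.90), and in 80 of 2091 nuclei at P3, 1.09 times that number, with an interval (0.866 to 1.36) that held 1. The E18.5 nuclei include the low-marker subclusters, in which both genes were low. Pooling such nuclei with the others raises this ratio, so it does not show whether the genes went together within the others. The ratio without them is not given here.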

How the data were processed

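UMI counts per gene and barcode were deposited by the authors as raw counts of called droplets, made with Cell Ranger and mm10 per the labels. The file headers name Cell Ranger 7.0.0 for E18.5 and 5.0.1 for P3, whereas the submitters' processing notes name 5.0.1 for both. Whether introns were counted and which annotation was used are not given in the sources used here. From these counts, barcodes were removed when log UMIs or log genes lay over 3 median absolute deviations (MAD) too low, or the mitochondrial share over 3 MAD and 0.5 percentage points too high. Nuclei were normalised with scran 1.30.0 (R 4.3.3) and clustered on 2000 variable genes and 50 principal components by Walktrap on a graph of 10 nearest neighbours, close to the study's own scheme. Doublet calls came from the Scrublet function of scanpy 1.11.5, and called nuclei were kept. A cluster could take a name when at least 3 markers of a class were raised 2-fold, with 10 CPM added and 10 or more UMIs. The name was withheld when another class had more markers among the leading genes or when UMIs were low without a leading marker. It was also withheld when a second class had over 0.8 of the best share of raised markers. Levels are UMIs summed over the nuclei of a class as CPM. Intervals are exact at 95% (Poisson for levels, conditional binomial for ratios, binomial for shares) and cover counting error only. Genes with 20 or more UMIs over both groups were tested against the 2-fold limit with 1 CPM added. The interval code was tested on simulated data. The genes and lists were chosen with earlier results of these data known. The named genes are the 7 members, in each list the 3 with the highest proximal ratio at P3 among those with 100 UMIs, relatives fixed by name, and the 5 genes most like each member. Other genes are named as chosen after their values were seen. Gene coordinates come from GENCODE M21 (32158 of 32285 identifiers matched). Alternatives were other clustering, naming, doublet, quality and scaling choices. Some genes of the lists and the motif searches are not reported here.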

Additional observations from a re-analysis of the deposited data

How the results depend on the processing

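The share of proximal nuclei was 11.8% at E18.5 and became 10.2% without called doublets, 9.50% with Leiden clustering, 5.35% with 20 nearest neighbours, 6.97% with linear quality limits, 7.76% without low-marker subclusters and 14.2% without doublet-rich clusters. At P3 it was 17.8% and became 12.3% without called doublets and 13.3% without doublet-rich clusters. The number of the 7 genes higher in loop and distal nuclei at P3 fell from 3 to 1 with Leiden clustering. The number higher at P3 in proximal nuclei fell from 3 to 1 with 20 nearest neighbours, with linear quality limits, without low-marker subclusters and in the late proximal clusters alone. Some ratios changed direction. Ppara in loop and distal over proximal nuclei at E18.5 was 0.627 without called doublets, 0.713 with 20 nearest neighbours, 0.938 with linear limits and 0.995 without low-marker subclusters. Between the ages, Hnf4g was 0.872, 0.734, 0.752, 0.917 and 0.769 and Ppargc1a 0.957, 0.727, 0.916, 0.938 and 0.917 with Leiden clustering, 20 nearest neighbours, linear limits, the late clusters and without low-marker subclusters. Hnf4a was 0.905 with 20 nearest neighbours, and Esrrg 0.906 there, 0.976 with linear limits and 0.971 without low-marker subclusters. That last setting kept the doublet-rich cluster 1 at P3. Detection of Hnf4g and Ppargc1a in the same proximal nuclei at E18.5 was 0.962 of the number expected without called doublets. The cause was not tested in any of these. Leiden clustering gave no loop and distal class at E18.5, and linear limits left P3 as it was. The settings on doublet-rich, low-marker and late clusters were chosen after seeing the data. No paired analysis was possible because each age has 1 library and the 2 libraries come from different animals.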

Other observations

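Hnf4aos, which overlaps Hnf4a on the opposite strand (chr2:163493807-163541720), differed more than Hnf4a between the ages in proximal nuclei, at 4.08-fold (3.88 to 4.30) against 1.65-fold. Against all other nuclei it stood at 6.22-fold at E18.5 and 22.9-fold at P3. Whether the counting used strand is not given in the sources used here, so reads of the pair may not be fully separated.

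A P3 cluster of 56 nuclei named interstitium-like, cluster 4, had the adipocyte genes Pparg and Plin1 among its leading genes and was looked at after its values were seen. Ppara stood there at 265 CPM against 69.4 CPM in all other nuclei, 3.82-fold (3.02 to 4.77). Esrra was at 1.79-fold (1.16 to 2.65), and the interval of Ppargc1a (1.18; 0.910 to 1.51) held 1. Adipoq, the adipocyte hormone gene, had 18 UMIs and Ucp1, the brown fat uncoupling gene, had 3.

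Ureteric-like clusters led by Upk1b, a urothelial plaque gene, held Ppara at 62.1 CPM at E18.5 (88 nuclei) and 71.8 CPM at P3 (71 nuclei), against 26.4 and 31.5 CPM in the whole ureteric class.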
